A study of Mus musculus with 2 samples.

Results

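The genes described here are 10 members of the pathway that brings long-chain fatty acids into the mitochondrion: Slc22a5, Acsl1, Acsl3, Acsl4, Cpt1a, Cpt1b, Cpt2, Crat, Acacb and Mlycd. They were chosen by symbol among the 22882 gene symbols of the expression tables. Of the 10, 8 stand on a row of their own. The other 2 share a row with a neighbouring gene, Cpt1b with Chkb and Acsl3 with Utp14b, so that their values cannot be separated from those of the neighbour. The Med1fl/fl group (control) carried loxP sites around part of Med1, which encodes a subunit of the Mediator complex, and had no Cre. The csMed1-/- group carried the same floxed alleles and a Cre transgene driven by the α-myosin heavy chain promoter, which deletes the floxed part in cardiomyocytes and not in the other cells of the heart. Both groups were 23 days old, of the C57BL6/J background and of mixed sex. Heart RNA of 5 mice was pooled for each genotype, and every pool gave a single library (1 per genotype), so there are no replicates, no test between the genotypes was possible, and no difference given here could be set against the variation between mice.

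Heart muscle burns mainly fatty acids. A fatty acid is first joined to coenzyme A by an acyl-CoA synthetase. Its acyl chain is then moved to carnitine by carnitine palmitoyltransferase 1 (CPT1) on the outer mitochondrial membrane, carried across the inner membrane by a translocase, and returned to coenzyme A by CPT2. Carnitine itself enters the cell through the transporter OCTN2, the product of Slc22a5. Malonyl-CoA inhibits CPT1. It is made at the mitochondrion by acetyl-CoA carboxylase 2 (Acacb) and removed by malonyl-CoA decarboxylase (Mlycd). Many of these genes are known targets of the nuclear receptor PPARα, for which Med1 is a coactivator.

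The values are FPKM, that is, fragment numbers scaled to transcript length and to library size, so genes of a library can be set side by side. How the libraries were scaled to each other is not given, so ratios between them rest on the deposited scaling. A gene was counted as tested when neither library listed it at 0 and its higher value reached 1 FPKM, which held for 10489 genes. A change past 2-fold, the fold threshold used in the study, was taken as a call. The study also set a false discovery rate cutoff, which was not applied here, so these calls are not those of the study. FPKM summed to 780366 in the control and 716365 in the csMed1-/- library. The tables hold no read counts, so depth and counting error are unknown, but steps among 2461 low rows put 1 csMed1-/- read at 0.719 of the FPKM of 1 control read, which would make that library 1.39 times as deep provided that mapped fragments alone set the scale. Med1 had 3.38 FPKM in control and 0.412 FPKM in the csMed1-/- pool, a value that covers all exons and not the floxed ones alone.

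Among the members the levels in control heart were spread over a 3829-fold range. Crat was highest at 610 FPKM, followed by the shared Chkb,Cpt1b row at 539, Cpt2 at 234, Mlycd at 174, Acsl1 at 151 and Acacb at 118 FPKM. Cpt1a and Slc22a5 were far lower, at 16.8 and 14.4 FPKM. The shared Acsl3,Utp14b row and Acsl4 lay under 1 FPKM in both libraries. In csMed1-/- heart the order changed: the Chkb,Cpt1b row came first at 364 FPKM, Crat next at 255, then Mlycd at 146 and Cpt2 at 110 FPKM. Acacb at 39.7 FPKM then stood above Acsl1 at 33.7 FPKM. With 1 library per genotype no spread is available to say which neighbours in these orders differ.

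**Figure D1:**
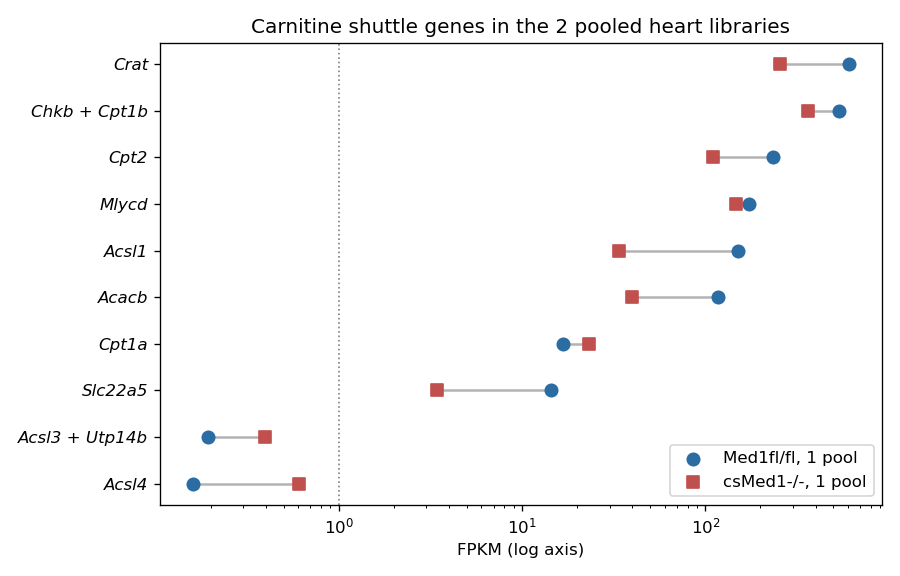
FPKM of the 10 members (log axis) in the Med1fl/fl pool (circles) and the csMed1-/- pool (squares), 1 library each, with a grey line joining both values of a row and a dotted line at 1 FPKM. The longest joining lines above 1 FPKM belong to Acsl1 (151 to 33.7) and Slc22a5 (14.4 to 3.41), and only Cpt1a, Acsl4 and the Acsl3,Utp14b row have the square on the right.

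Of the 8 members on rows of their own, 7 were tested, and 5 of these were lower in csMed1-/- heart by more than 2-fold. None was higher by more than 2-fold. Over all tested genes 18.0% were lower and 13.6% higher by more than 2-fold, and among the 1223 genes at 100 FPKM or more in either library 18.7% were lower and 19.3% higher. The 7 tested members had a median log2 ratio (csMed1-/- to control) of -1.26, against -0.07 over all tested genes, whose quartiles were -0.72 and 0.55. The member ratios were spread over 2.63 log2 units. The 5 lower members were Acsl1, Slc22a5, Acacb, Crat and Cpt2, while Mlycd and Cpt1a stayed within 2-fold.

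**Figure D2:**
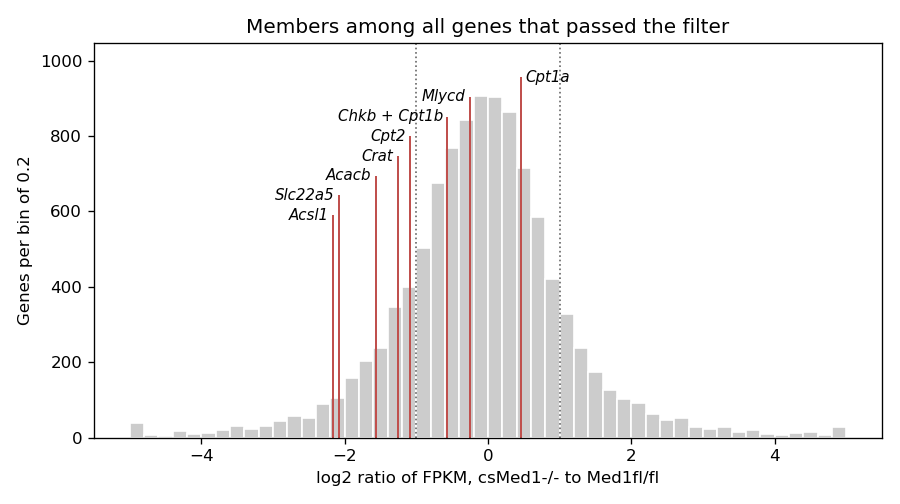
Histogram of the log2 ratio of FPKM, csMed1-/- to Med1fl/fl, for the 10489 tested genes in bins of 0.2 (values beyond 5 in size are drawn in the end bins), with red lines for the 7 tested members and the shared Chkb,Cpt1b row and dotted lines at 2-fold. Acsl1 and Slc22a5 lie on the left flank at -2.16 and -2.07, and Cpt1a is the only member to the right of 0, at 0.46.

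Carnitine uptake was represented by Slc22a5 (chromosome 11, 53864542 to 53891660, minus strand, in the GENCODE M21 annotation of GRCm38, the assembly also called mm10), the plasma membrane carnitine transporter. It had 14.4 FPKM in control and 3.41 FPKM in the csMed1-/- pool, 4.21-fold lower (log2 ratio -2.07). Only 4.61% of the tested genes had a lower ratio. Its level moved from above that of 61.7% of tested genes in control to above that of 32.1% in csMed1-/- heart. A related transporter gene, Slc22a4, had 1.76 and 2.62 FPKM, and Slc22a21, which encodes a further organic cation transporter of the same family, had 1.06 and 0.378 FPKM.

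Among the synthetases, Acsl1 (chromosome 8, 46471037 to 46536051, plus strand), the main long-chain acyl-CoA synthetase of heart, had 151 FPKM in control and 33.7 FPKM in the csMed1-/- pool. This 4.48-fold lower value (log2 ratio -2.16) was the largest change among the tested members, and 4.28% of tested genes had a lower ratio. Acsl4 (chromosome X, 142317993 to 142390535, minus strand), whose product prefers arachidonic acid, had 0.159 and 0.607 FPKM. The Acsl3,Utp14b row had 0.193 and 0.397 FPKM. Acsl3 (chromosome 1, 78657825 to 78707743, plus strand), a synthetase of the endoplasmic reticulum and lipid droplets, overlaps Utp14b over 13475 bases on the same strand, with 244 exonic bases in common. Both of these rows were higher in the csMed1-/- library, in the opposite direction to Acsl1, but by only 0.448 and 0.204 FPKM. Their log2 ratios of 1.93 and 1.04 shrank to 0.47 and 0.23 once 1 FPKM was added to both values, and neither was tested.

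The remaining long-chain synthetases were also low. Acsl5 had 4.56 and 1.81 FPKM. Acsl6 had 3.0 FPKM in control and 0.111 FPKM in the csMed1-/- pool over its 2 rows, both of which were lower. Summed over Acsl1, Acsl5, Acsl6, Acsl4 and the Acsl3,Utp14b row, long-chain synthetase FPKM amounted to 159 for control and 36.6 for csMed1-/- heart (ratio 0.231). Acsl1 made up 95.0% of the sum in control and 92.0% in csMed1-/- heart, so the family total followed this 1 gene.

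The acyltransferases did not move alike. Crat (chromosome 2, 30400471 to 30415813, minus strand), which encodes carnitine acetyltransferase and acts on short chains, had 610 and 255 FPKM, 2.39-fold lower in csMed1-/- heart (log2 ratio -1.26). Cpt2 (chromosome 4, 107903981 to 107923610, minus strand), the inner membrane enzyme, had 234 and 110 FPKM, 2.13-fold lower (log2 ratio -1.09). Cpt2 lay nearest to the threshold of the 5 lower members, and scaling both libraries to the same summed FPKM brought it to -0.97, inside 2-fold. Crat held 2.61 times the FPKM of Cpt2 in control and 2.32 times in csMed1-/- heart.

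CPT1 has a muscle form, encoded by Cpt1b, a liver form, encoded by Cpt1a, and a brain form, encoded by Cpt1c. Cpt1b (chromosome 15, 89416405 to 89425863, minus strand) lies 496 bases downstream of the choline kinase gene Chkb on the same strand, and the deposited tables give a single value for the pair. The shared row had 539 FPKM in control and 364 FPKM in the csMed1-/- pool (log2 ratio -0.57), within 2-fold, and 30.3% of tested genes had a lower ratio. This value is a joint one, so neither the level nor the change of Cpt1b alone is known. Cpt1a (chromosome 19, 3322334 to 3385733, plus strand) had 16.8 and 23.2 FPKM, 1.38 times as high in csMed1-/- heart (log2 ratio 0.46), and 72.4% of tested genes had a lower ratio. Cpt1c had 2.29 and 3.19 FPKM.

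The shared row held 32.1 times the FPKM of Cpt1a in control and 15.7 times in csMed1-/- heart. Cpt1a made up 3.01% of the summed FPKM of Cpt1a, Cpt1c and the shared row in control and 5.94% in csMed1-/- heart, 1.98 times the control share. As the shared row also holds Chkb, these shares are lower limits for Cpt1a among the CPT1 genes of each library, and whether the proportion of Cpt1a to Cpt1b differed between the libraries cannot be told from them. The sum itself was 559 FPKM in control and 390 FPKM in the csMed1-/- pool. Shares of this kind do not depend on how the libraries were scaled to each other.

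The malonyl-CoA genes were unequal too. Acacb (chromosome 5, 114146535 to 114250761, plus strand), whose enzyme makes malonyl-CoA at the outer mitochondrial membrane, had 118 FPKM in control and 39.7 FPKM in the csMed1-/- pool, 2.97-fold lower (log2 ratio -1.57). Mlycd (chromosome 8, 119394878 to 119411102, plus strand), whose enzyme removes malonyl-CoA, had 174 and 146 FPKM (log2 ratio -0.25), and 42.4% of tested genes had a lower ratio. The proportion of Acacb to Mlycd FPKM stood at 0.677 for control and 0.272 for csMed1-/- heart, 0.401 of the control value. Acaca, the gene of the cytosolic carboxylase used for fatty acid synthesis, had 1.5 and 0.922 FPKM, so that Acacb stood 78.8 times above it in control and 43.1 times above it in csMed1-/- heart.

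**Figure D3:**
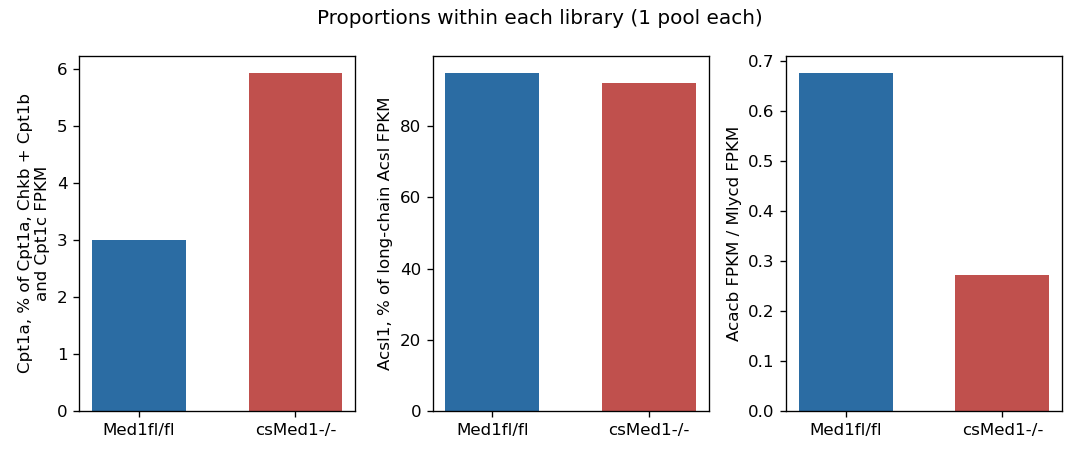
Proportions within each pooled library (blue, Med1fl/fl; red, csMed1-/-; 1 pool each, so no error bars), with axes from 0. Left, Cpt1a as a percentage of Cpt1a, Chkb,Cpt1b and Cpt1c FPKM (3.01 and 5.94); middle, Acsl1 as a percentage of long-chain Acsl FPKM (95.0 and 92.0); right, the ratio of Acacb to Mlycd FPKM (0.677 and 0.272).

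Promoter sequence was looked up for the members in the RefSeq-derived table for GRCm38.p6, which matched 8 of the 10 with 9 promoters, 2 of them for Acsl1, and had no entry for Cpt1b and Crat. Its starts are not always the outer ends of the GENCODE gene spans given above. That of Slc22a5 lies 43 bases upstream of the span, outside it. That of Cpt1a lies 967 bases and that of Acacb 18983 bases inside the span, and the second Acsl1 start lies 19929 bases downstream of the first. Stretches of 100 bases, from position -150 to -51 before the start in this table, are printed for Acsl1 (its upstream promoter) and Slc22a5, which had the largest decreases, for Mlycd, which changed least, and for Cpt1a, the tested member that was higher. They lie at chr8:46470887-46470986 (plus strand), chr11:53891754-53891853 (minus strand), chr8:119394744-119394843 (plus strand) and chr19:3323151-3323250 (plus strand). Capitals mark the GC box GGGCGG and the nuclear receptor core motif AGGTCA on either strand (read as CCGCCC and TGACCT on the opposite one).
Acsl1: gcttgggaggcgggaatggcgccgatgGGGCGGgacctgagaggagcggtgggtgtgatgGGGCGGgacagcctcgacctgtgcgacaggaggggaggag
Slc22a5: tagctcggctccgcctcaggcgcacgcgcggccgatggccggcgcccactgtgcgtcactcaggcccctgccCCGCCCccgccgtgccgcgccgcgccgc
Mlycd: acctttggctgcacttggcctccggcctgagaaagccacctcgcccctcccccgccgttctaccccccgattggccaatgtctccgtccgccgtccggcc
Cpt1a: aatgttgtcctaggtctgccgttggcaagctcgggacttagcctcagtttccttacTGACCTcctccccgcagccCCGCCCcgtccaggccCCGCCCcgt

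Over whole promoters of 300 bases (250 before and 50 after the start), the core motif AGGTCA was found on either strand for 2 of the 8 members, Cpt1a at positions -94 to -89 and Acacb at positions 43 to 48. It was present in 16.3% of all 32851 promoters of the table. In Cpt1a it is the capital run TGACCT in its printed stretch. The direct repeat of this motif with 1 base between its copies (DR-1, searched on both strands, each copy read as AGG, any base and CA) was found in none of the member promoters and in 0.381% of all promoters. The GC box stood in 6 of the 9 member promoters (the upstream one of Acsl1 and those of Acsl3, Acsl4, Cpt1a, Cpt2 and Slc22a5, overlapping copies counted), not in the second promoter of Acsl1, and in 35.7% of all promoters. These matches describe letters in a short window.

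The other genes of the pathway came to 99 listed genes, 84 of which were tested. Of the 84, 36 (42.9%) were lower and 5 (5.95%) higher by more than 2-fold, against 18.0% and 13.6% over all tested genes. Their median log2 ratio was -0.62. Med1 itself is among the 36, and without it 35 of 83 were lower, with a median of -0.61. The 36 also hold 6 of 12 acyl-CoA dehydrogenase genes and 12 of 13 genes of later β-oxidation steps and electron transfer. The pooled share therefore rests in large part on these 2 lists, and the other lists are given below. Of 6 tested genes of carnitine transport and transfer outside the members, 2 were lower and none was higher by more than 2-fold. Slc25a20, the carnitine-acylcarnitine translocase that links CPT1 to CPT2, had 141 and 82.1 FPKM (log2 ratio -0.78). Slc25a29, a mitochondrial carrier related to it that carries basic amino acids, had 36.0 and 11.2 FPKM (log2 ratio -1.69). At the other end of this list Slc22a4 had a log2 ratio of 0.57. None of the 3 tested genes listed for carnitine synthesis passed 2-fold, with log2 ratios from -0.48 (Aldh9a1) to 0.38 (Shmt2). The genes of the steps particular to this synthesis, Bbox1 (0.0225 and 0 FPKM) and Tmlhe (0 in both), were listed at or near 0. A listed 0 can be a failed estimate, as the marker genes below show, so no level is given for them.

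Of 9 further acyl-CoA synthetase genes that were tested, 4 were lower and none was higher by more than 2-fold. Acss1, the mitochondrial acetyl-CoA synthetase, had 87.5 FPKM in control and 9.98 FPKM in the csMed1-/- pool, 8.77-fold lower. Slc27a1, a fatty acid transport protein with synthetase activity, had 130 and 42.5 FPKM, 3.06-fold lower. Acsl6 had the lowest log2 ratio of the list (-4.76), from a low level. Acsf2, a medium-chain synthetase, had the highest, at 0.55 (24.1 and 35.2 FPKM).

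Among thioesterases, which split acyl-CoA, and acyl-CoA binding proteins, 4 of 13 tested genes (30.8%) were lower and 2 (15.4%) higher by more than 2-fold. The higher share was near the 13.6% over all tested genes. Acot13 had 258 and 112 FPKM, and Acot7 had 154 and 68.4 FPKM. The lowest log2 ratio was that of Acot11 (-2.58, from 6.15 to 1.03 FPKM). On the higher side were Acot9, a mitochondrial thioesterase, with 6.75 and 21.4 FPKM, and the acyl-CoA binding protein gene Acbd4, with 16.4 and 44.1 FPKM. Acot1 and Acot2, thioesterases long known as PPARα targets, stayed within 2-fold at log2 ratios of -0.56 and -0.82.

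The 17 genes listed around malonyl-CoA and AMP-activated protein kinase (AMPK), the kinase that phosphorylates and inhibits the product of Acacb, had a median log2 ratio of 0.23. Of these, 2 (11.8%) were lower and 3 (17.6%) higher by more than 2-fold, not far from the 18.0% and 13.6% over all tested genes. The lower ones were Mid1ip1, whose product promotes the assembly of acetyl-CoA carboxylase into filaments, with 99.0 and 12.1 FPKM (8.19-fold lower), and Thrsp, which encodes a relative of that protein, with 24.7 and 10.5 FPKM. The higher ones were all regulatory subunits of AMPK. Prkag2 had 14.0 and 42.6 FPKM, Prkab2 had 3.94 and 10.7 FPKM, and Prkag3 had 0.378 and 2.28 FPKM. The catalytic subunit genes Prkaa1 (0.834 and 1.02 FPKM) and Prkaa2 (1.54 and 1.28 FPKM) stayed within 2-fold. So did the regulatory subunit genes Prkag1 (106 and 85.7 FPKM) and Prkab1 (37.3 and 24.5 FPKM), both lower in csMed1-/- heart.

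Among PPARα and its partners, 5 of 10 tested genes other than Med1 (50%) were lower and none was higher by more than 2-fold. Over all tested genes the shares were 18.0% and 13.6%. Ppara had 12.4 and 1.66 FPKM, the lowest ratio of these 10 (log2 ratio -2.90). The retinoid X receptor gene Rxrg had 71.7 and 14.0 FPKM, and Esrra, the gene of the estrogen-related receptor α, had 127 and 61.4 FPKM. The coactivator genes Ppargc1a (4.41 and 0.953 FPKM) and Ppargc1b (4.87 and 1.76 FPKM) were also lower, from low levels. For Ppargc1b the study tabulated a lower RNA-Seq ratio than the 0.361 found here. Rxrb, with 40.9 and 41.1 FPKM, had the highest log2 ratio (0.01).

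Genes of the acyl-CoA dehydrogenase family and of the later β-oxidation steps are given for their levels beside the members. The family is wider than the step after the shuttle: Ivd, Gcdh, Acad8 and Acadsb act in amino acid breakdown. All 12 acyl-CoA dehydrogenase genes had lower FPKM in the csMed1-/- pool, 6 of them by more than 2-fold, with a median log2 ratio of -0.88. The range ran from -2.78 for Acadm, the medium-chain enzyme, to -0.02 for Acadsb. The others past 2-fold were Acad11 (log2 ratio -1.93), Gcdh (-1.58), Ivd (-1.43), Acad9 (-1.29) and Acadvl (-1.12), the very long-chain enzyme that takes up the acyl-CoA released by CPT2. Of the 13 genes of the later steps and of electron transfer, 12 were lower by more than 2-fold, with a median of -1.89, from -2.57 for Acaa2 (1595 and 269 FPKM) to -0.19 for Decr1 (233 and 205 FPKM). Between them lay Eci1 (-2.19), Acat1 (-2.06), Echs1 (-2.01), Etfdh (-1.99), Hadha (-1.94), Hadh (-1.89), Ech1 (-1.84), Etfa (-1.79), Hadhb (-1.75), Etfb (-1.62) and Eci2 (-1.20). The median over the 7 tested members (-1.26) lay between both values. Whether the lists differ could not be tested with 1 library per genotype.

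**Figure D4:**
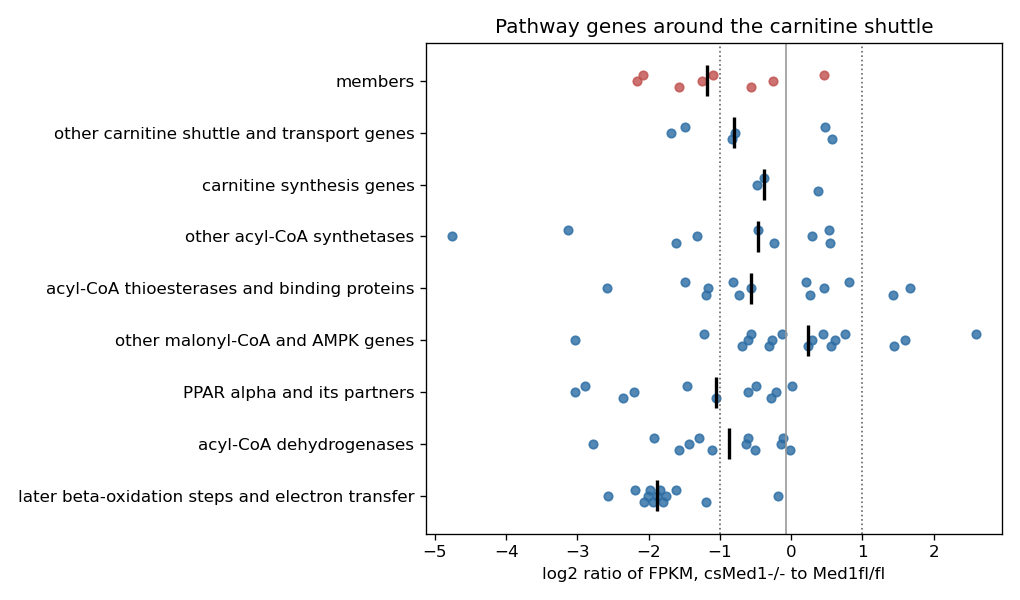
Log2 ratio of FPKM, csMed1-/- to Med1fl/fl, for each tested gene (points, spread vertically for legibility) of the members and of 8 pathway lists, with the list median (black bar), 2-fold limits (dotted lines) and the median of all tested genes (grey line, -0.07). Med1, the targeted gene, is the lowest point of the PPARα list at -3.04. The median of that list is -1.05 with Med1, as drawn, and -0.83 without it. The members (red, the shared Chkb,Cpt1b row included, median -1.18) run from -2.16 to 0.46. The later β-oxidation genes other than Decr1 (-0.19) run from -2.57 to -1.20, with a list median of -1.89.

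Marker genes of the cells in heart were compared as well, because in bulk tissue fewer cells of a type and less RNA per cell cannot be told apart. Over all tested genes 18.0% were lower and 13.6% higher by more than 2-fold. Of 7 tested cardiomyocyte markers 4 (57.1%) were lower by more than 2-fold (Tnni3, Myl2, Ckm and Tnnt2). The summed FPKM of these 7 markers was 55787 in control and 21536 in csMed1-/- heart. Nkx2-5, a cardiomyocyte transcription factor gene, had 146 and 188 FPKM. Another 3 marker rows, Actc1, Mb and Myh6,Myh7, were listed at 0 in control only, although heart cells depend on them, so a value of 0 in these tables can be a failed estimate. No member was listed at 0. Of 8 fibroblast markers 4 (50%) were higher and 1 (12.5%) lower by more than 2-fold, with sums of 503 and 1193 FPKM. For 7 smooth muscle and pericyte markers 3 (42.9%) were higher and 1 (14.3%) lower. Their sums of 2545 and 5347 FPKM were mostly Des, which cardiomyocytes also express, and the other 6 summed to 675 and 496 FPKM. For 8 endothelial markers 1 (12.5%) was higher and 3 (37.5%) were lower (523 and 458 FPKM). The lower shares of fibroblast and smooth muscle markers and the higher share of endothelial markers were near those over all tested genes. None of 8 macrophage markers passed 2-fold (404 and 464 FPKM).

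The part of these marker differences in the lower values of Acsl1, Slc22a5, Acacb, Crat and Cpt2, and in the higher value of Cpt1a, was not tested. Markers of other tissues in which members are abundant were also read. All 6 adipocyte markers were listed at 0 in control, which gives no level for them there, since a listed 0 can be a failed estimate. In csMed1-/- heart 3 of them were listed at 0 and the other 3 summed to 0.0271 FPKM. The 6 liver markers summed to 10.5 and 2.92 FPKM, and Alb had 6.23 and 0.746 FPKM. Of 5 tested skeletal muscle markers 3 (60%) were lower and 2 (40%) higher by more than 2-fold, against 18.0% and 13.6% over all tested genes. Acta1, which heart muscle also expresses, made up most of the sums of 221 and 2037 FPKM over all 8 listed genes. Without Acta1 these sums came to 14.4 and 4.46 FPKM.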

How the data were processed

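Directional polyadenylated libraries were read as single-end reads. The authors used TopHat v2.0.8b for alignment against mm10 and derived FPKM values with Cufflinks and Cuffdiff v2.1.1 from the UCSC gene annotation. The submitters' processing notes also name STAR v2.4.0h without a role and list DESeq2, and the paper names neither. The library scaling is not given in the sources used here. The deposited FPKM were used as they stand, for 23424 rows per library. Rows of the 412 symbols on several rows were summed, and 210 rows carry joined symbols of neighbouring genes.

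FPKM of csMed1-/- was divided by FPKM of control, with no pseudocount, for genes with no value of 0 and a higher value of at least 1 FPKM, and 2-fold was the threshold. No test was made, as there is 1 library of 5 pooled mice per genotype. The members, gene lists, motifs and settings were chosen with earlier results of these data known. Named were all members, and of each pathway list the genes past 2-fold at 10 FPKM or more and its highest and lowest ratio; others were added after their values were seen. Positions came from GENCODE M21 (GRCm38) and promoters from RefSeq (GRCm38.p6). Python 3.11.15, numpy 2.4.6, pandas 2.3.3 and matplotlib 3.10.9 were used. Alternatives were pseudocounts, filters, scalings, the highest row of a symbol and other thresholds.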

Additional observations from a re-analysis of the deposited data

How the results depend on the processing

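The counts past 2-fold, the median of the members and the member ratios were recomputed under other pseudocounts, filters, scalings and row choices (the counts also at other thresholds), which gave 118 values. The 3 proportions within a library were recomputed only with 2 pseudocounts and with the highest row of a symbol, which gave 9 values. No member ratio, median or proportion reversed direction, but for the member ratios this was fixed in advance. Pseudocounts and filters cannot change the sign of a ratio, and each member stands on 1 row. The scalings shifted log2 ratios by at most 0.12, less than the smallest tested member ratio in size (-0.25 for Mlycd). Counts have no direction to reverse. At a 4-fold threshold 2 members (Acsl1 and Slc22a5) and 14 pathway genes remained past it, which follows from the stricter limit. Scaling to the same summed FPKM shifted all log2 ratios by 0.12, brought Cpt2 to -0.97 and left 4 members past 2-fold. The sums used for it hold Actc1, Mb and Myh6,Myh7 in csMed1-/- heart only (9189, 1040 and 647 FPKM). Control lists these rows at 0, so the size of this shift is uncertain. Counting the shared rows as members with no filter on low values, chosen after seeing the data, gave a median log2 ratio of -0.83 over 10 members, with 5 lower and 2 higher by more than 2-fold. No paired analysis was possible because each genotype has 1 library. The depth is unknown, which limits the rows under 1 FPKM most.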

Other observations

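In these 2 libraries the genes nearest to Cpt1a in the log2 FPKM of both libraries were Atxn2l (16.8 and 23.0 FPKM), Icmt (16.8 and 23.6 FPKM) and Pip4k2c (17.3 and 22.9 FPKM). Those nearest to the shared Chkb,Cpt1b row were Rps6 (571 and 377 FPKM), Rpl6 (486 and 369 FPKM) and Ndufc2 (613 and 382 FPKM). With 2 libraries such likeness rests on 1 level and 1 ratio.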
